A study of Mus musculus with 18 samples.

Results

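The nuclear-encoded genes of oxidative phosphorylation were followed through 5 groups of mouse brain macrophages. They were chosen by name alone: the subunit genes of complex I (Nduf), complex II (Sdh), complex III (Uqcr), complex IV (Cox4 to Cox8) and the ATP synthase (Atp5), leaving out names that end in -ps. That gave 82 of the 13043 genes in the count table, of which 36 belong to complex I, 4 to complex II, 8 to complex III, 17 to complex IV and 17 to the ATP synthase, here called complex V. Ndufa4 carries a complex I name and was counted with complex IV, where its protein is known to sit. Of the 82 genes 79 had enough counts to be tested, out of 10597 tested genes in all. The other members were Cox6c2, Cox7a1 and Cox8b. Cox6c2 fits the name rule and was kept, though GENCODE vM21 lists it as a processed pseudogene.

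Complexes I to IV pass electrons from NADH and succinate to oxygen. Complexes I, III and IV, but not complex II, pump protons across the inner mitochondrial membrane. The ATP synthase uses the returning protons to make ATP. Most subunits are encoded in the nucleus, translated in the cytosol and imported, while a few core subunits are encoded by mitochondrial DNA. In macrophages the balance between oxidative phosphorylation and glycolysis is known to vary with tissue and with activation.

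The study gave lethally irradiated wild type C57BL6/C mice bone marrow that carried Ms4a3-Cre, R26-TdTomato and Cx3cr1-gfp and sorted brain macrophages 32 weeks later. Ms4a3-Cre marks progeny of granulocyte-monocyte progenitors. Cells with GFP and TdTomato were therefore taken as monocyte-derived, cells with GFP alone as HSC-derived (from haematopoietic stem cells), and cells with no colour as host cells. There were 4 libraries each of microglia of the host, the monocyte and the HSC origin and of leptomeningeal macrophages of the monocyte origin, and 2 of leptomeningeal macrophages of the HSC origin. All groups came from irradiated, transplanted mice. The origin of a donor cell rests on a reporter, and an HSC-derived cell is one in which the Ms4a3 label is absent. Cells of the leptomeninges were rinsed from the intact brain after one digestion, and microglia were released by a second digestion and a Percoll step. Compartment and isolation step therefore cannot be told apart. The labels do not say that replicates were separate mice, so that p-values measure only the spread between these samples.

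Libraries were bulk MARS-seq, a method that counts unique molecular identifiers (UMIs) at the 3' end of transcripts, and counts were not divided by gene length. Levels are in CPM, which are counts brought to a common library total, with totals scaled by the trimmed mean of M-values (TMM). Total counts ran from 154727 to 2440234 per library, and 3 counts corresponded to between 1.05 and 23.1 CPM. HSC-derived microglia replicates 3 and 4 (264795 and 317872 counts) and HSC-derived leptomeningeal replicate 2 (154727 counts) were the shallowest. They also stood apart in composition: pseudogenes of ribosomal proteins took 0.748% to 0.882% of their counts, against 0.063% to 0.251% in the other 15 libraries. Results that rest on these 3 libraries are given with and without them. The 5 microglial markers summed to between 14790 and 17260 CPM in host microglia and to between 1273 and 2992 CPM in leptomeningeal macrophages. The 6 markers of border macrophages ran from 36.2 to 43.2 CPM and from 4136 to 8003 CPM. In monocyte-derived microglia the sums were 6882 to 7623 CPM for microglial and 2089 to 2198 CPM for border markers. In HSC-derived microglia they were 5573 to 6705 CPM and 2217 to 2998 CPM. Both groups thus lay between host microglia and leptomeningeal macrophages in either sum.

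The summed level of the 82 genes differed between compartments and, within HSC-derived microglia, between libraries. In host microglia the sum was 11350, 11040, 10700 and 12110 CPM, and in monocyte-derived microglia it was 9888, 10090, 10330 and 9971 CPM. In monocyte-derived leptomeningeal macrophages it was 14740, 18820, 17660 and 15830 CPM. Every one of those leptomeningeal libraries lay above every host and monocyte-derived microglia library, and the host libraries lay above the monocyte-derived microglia. HSC-derived microglia fell into a low pair, 11740 and 12000 CPM, and a high pair, 21850 and 19580 CPM, and the high pair were the shallow libraries. HSC-derived leptomeningeal macrophages had 18760 CPM and, in the shallow library, 22500 CPM. In bulk libraries fewer cells of a type and less RNA per cell cannot be told apart.

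**Figure D1:**
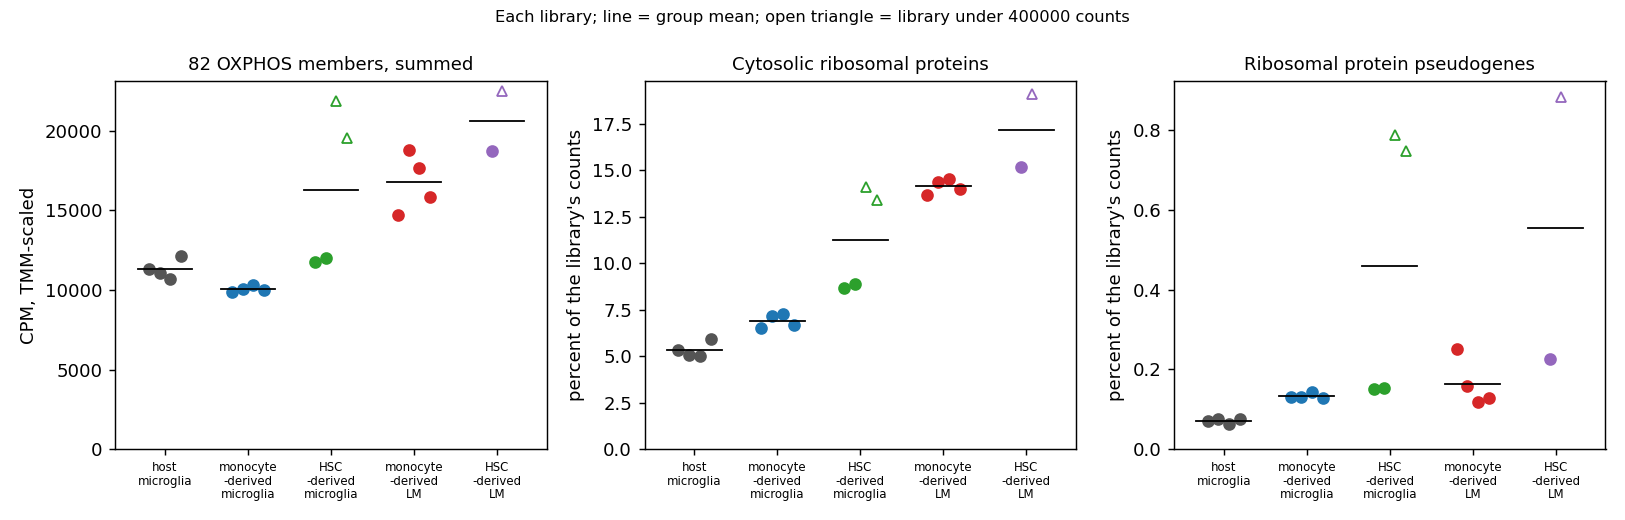
Each point is 1 library of the 5 groups (LM, leptomeningeal macrophages): the summed CPM of the 82 genes (left), and the percent of counts from cytosolic ribosomal proteins (middle) and from ribosomal protein pseudogenes (right). Bars are group means and open triangles are the 3 shallow libraries. The 4 monocyte-derived LM libraries, 14740 to 18820 CPM, lie above the 8 host and monocyte-derived microglia libraries, and the triangles are the highest of their groups in all 3 panels.

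As a share of all counts the members made up 1.30% ± 0.061 (SD, n = 4) in host microglia and 1.13% ± 0.011 (n = 4) in monocyte-derived microglia. The share was 1.41% ± 0.21 (n = 4) in HSC-derived microglia, 1.52% ± 0.071 (n = 4) in monocyte-derived leptomeningeal macrophages and 1.79% ± 0.14 (n = 2) in HSC-derived leptomeningeal macrophages. Apoe, a lipid carrier, took 9.54% ± 0.41 of counts in monocyte-derived microglia and 0.388% ± 0.026 in host microglia. With Apoe and the cytosolic ribosomal proteins taken out of the total, the members' share was 1.38% ± 0.071 in host and 1.35% ± 0.011 in monocyte-derived microglia, so that both groups overlapped, and 1.89% ± 0.12 in monocyte-derived leptomeningeal macrophages.

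The clearest difference lay between compartments within the monocyte lineage. In monocyte-derived leptomeningeal macrophages 54 of the 79 tested members were called higher than in monocyte-derived microglia (adjusted p under 0.05 in edgeR's quasi-likelihood test, adjusted over all tested genes by Benjamini-Hochberg), where 19% of all tested genes were. Another 2 were called lower, where 16.3% of all tested genes were. The median log2 fold change of the members was 0.69, against -0.04 over all tested genes, and 73 of the 79 had a positive value. Without the 3 shallow libraries the counts were 58 higher and 3 lower, with 22.6% and 21.2% of all genes called, and the 56 calls made with all libraries were kept. Leaving out 1 library of either group at a time gave 48 to 54 members called higher, with 16.7% to 19.1% of all genes. With library totals in place of TMM scaling the median over all genes shifted to -0.34 and that of the members to 0.40, and 39 members were called higher and 4 lower, with 12.4% and 31.5% of all genes.

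By complex, the members called higher were 19 of 36 in complex I, 3 of 4 in complex II, 8 of 8 in complex III, 11 of 14 in complex IV and 13 of 17 in complex V. The median log2 fold changes were 0.62, 0.52, 0.75, 0.75 and 0.83. Among core subunits of complex I, Ndufv2 was called higher (0.39) and Ndufs3 lower. Ndufs1, which carries iron-sulfur clusters, and Ndufv1, which binds NADH, were called in none of the 7 comparisons.

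**Figure D2:**
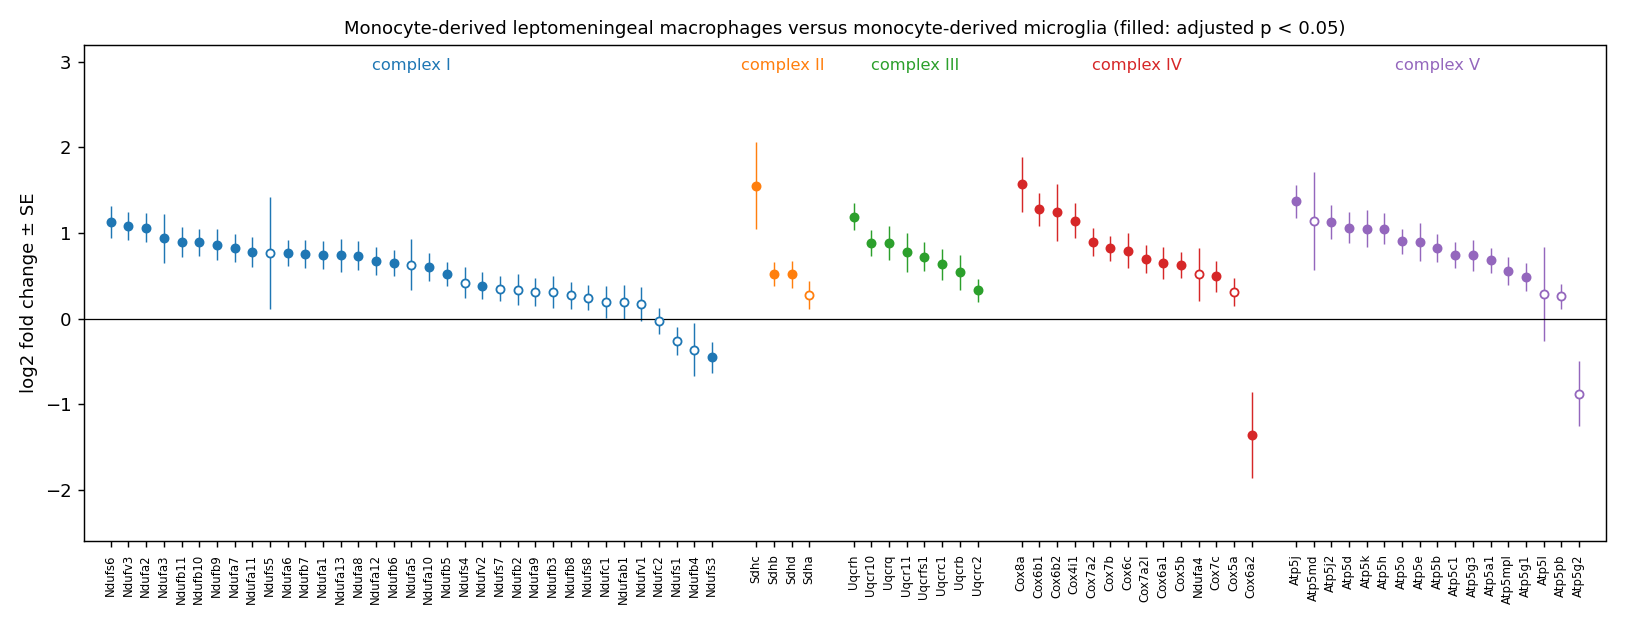
Log2 fold change ± SE of the 79 tested members, all but 1 of them drawn, in monocyte-derived leptomeningeal macrophages against monocyte-derived microglia, from 4 libraries a group, ordered within each complex. Filled points have an adjusted p under 0.05: 54 lie above 0 and 2, Ndufs3 and Cox6a2, lie below.

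In complex I the largest increases were in accessory subunits. Ndufs6, an accessory subunit of the NADH-oxidizing arm, measured 81.3, 91.9, 84.8 and 89.4 CPM in monocyte-derived microglia and between 131 and 239 CPM in the leptomeningeal libraries, without overlap. It rose by 1.13 ± 0.18 on the log2 scale (SE; adjusted p = 1.2e-05, edgeR quasi-likelihood test). Ndufv3, another subunit of that arm, measured 99.7, 82.8, 102 and 95.0 CPM in monocyte-derived microglia and 202 ± 33.2 CPM (SD, n = 4) in the leptomeningeal group, a rise of 1.09 ± 0.16 (adjusted p = 2.28e-06, edgeR). Ndufa2 rose by 1.06 ± 0.17 (adjusted p = 4.9e-06, edgeR). Ndufs3, a core subunit of the arm that meets the quinone pocket, went the other way.

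Ndufs3 (chr2:90894634-90904827, minus strand, GENCODE vM21 on GRCm38) measured 59.4, 57.1, 58.2 and 75.0 CPM in monocyte-derived microglia and 66.8, 38.4, 39.5 and 36.3 CPM in monocyte-derived leptomeningeal macrophages. The groups overlapped because leptomeningeal replicate 1 was high. The fall was -0.45 ± 0.18 (adjusted p = 0.0481, edgeR), and the call was lost in 11 of 18 alternative analyses, in which the change ran from -0.75 to -0.35 (adjusted p from 0.00155 to 0.18).

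Complex II feeds electrons from succinate into the chain. Sdhd, a membrane anchor (chr9:50596357-50603812, minus strand), measured 76.7, 64.6, 66.6 and 82.2 CPM in monocyte-derived microglia and 89.2, 123, 103 and 103 CPM in the leptomeningeal group, without overlap, and rose by 0.52 ± 0.16 (adjusted p = 0.00854, edgeR). Sdhb, the iron-sulfur subunit, rose by 0.52 ± 0.14 (adjusted p = 0.00297, edgeR). Sdhc, the other anchor, was low in both groups, 6.45 ± 4.14 and 18.9 ± 7.73 CPM, and its libraries overlapped at a change of 1.55 ± 0.51 (adjusted p = 0.0216, edgeR). Sdha, the flavoprotein, was called in no comparison.

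All 8 complex III genes passed the test in the leptomeningeal group. Uqcrh, the hinge protein at the cytochrome c docking site (chr4:116066965-116075071, minus strand), measured 105, 109, 117 and 99.8 CPM in monocyte-derived microglia and 226, 244, 244 and 272 CPM in the leptomeningeal group. The groups lay far apart and the rise was 1.19 ± 0.16 (adjusted p = 2.23e-07, edgeR). Uqcrfs1, the Rieske iron-sulfur protein, rose by 0.72 ± 0.17 (adjusted p = 0.000886, edgeR), and Uqcrc1, a core protein, by 0.64 ± 0.18 (adjusted p = 0.00526, edgeR).

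In complex IV the change was largest for Cox8a, the ubiquitous form of the smallest nuclear subunit (chr19:7215153-7217616, minus strand). It measured 112, 97.7, 91.8 and 116 CPM in monocyte-derived microglia and 202, 325, 360.3 and 353 CPM in leptomeningeal macrophages, without overlap. The rise was 1.57 ± 0.32 (adjusted p = 0.00144, edgeR). Cox6b1, which lies at the dimer interface on the side of cytochrome c, measured 163, 189, 171 and 165 CPM against 366, 426, 467 and 411 CPM. It rose by 1.28 ± 0.19 (adjusted p = 4.56e-06, edgeR).

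Cox4i1, the ubiquitous form of a regulatory subunit (chr8:120668222-120674207, plus strand), was a highly counted member, with a mean of 886 CPM over the 18 libraries. It measured 488, 509, 552 and 514 CPM in monocyte-derived microglia and 845, 1334, 1369 and 1020 CPM in the leptomeningeal group, and rose by 1.15 ± 0.20 (adjusted p = 3.03e-05, edgeR). Again no library of one group reached the other. Cox5a, a subunit on the matrix side, measured 184 ± 10.2 and 231 ± 65.8 CPM and was called in none of the 7 comparisons.

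The ATP synthase genes moved across both of its parts. Atp5j, coupling factor 6 of the stator (chr16:84827866-84835625, minus strand), measured 62.8, 53.0, 57.5 and 56.7 CPM in monocyte-derived microglia and 112, 168, 163 and 157 CPM in the leptomeningeal group, and rose by 1.37 ± 0.19 (adjusted p = 1.2e-06, edgeR). Atp5j2, subunit f of the membrane part, measured 203, 209, 198 and 184 CPM against 342, 433, 555 and 409 CPM and rose by 1.13 ± 0.20 (adjusted p = 4.4e-05, edgeR). The groups were apart for both genes. In the catalytic head, Atp5a1 (alpha) rose by 0.68, Atp5b (beta) by 0.83 and Atp5c1 (gamma) by 0.74 (adjusted p from 0.000189 to 0.000348, edgeR).

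**Figure D3:**
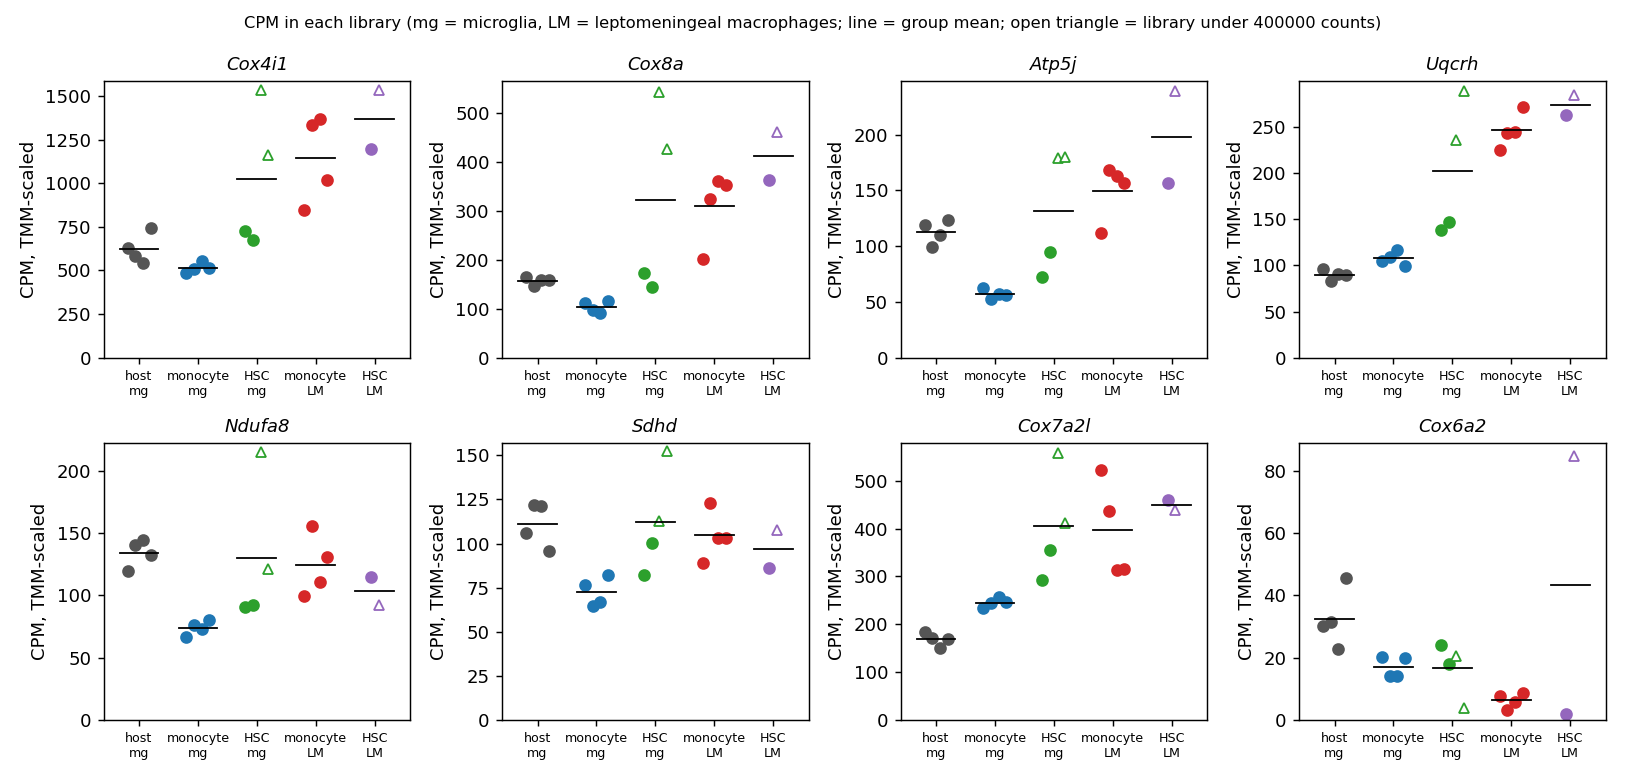
CPM of 8 members in each of the 18 libraries by group (mg, microglia; LM, leptomeningeal macrophages); horizontal bars are group means and open triangles the 3 shallow libraries. In Cox4i1, Cox8a, Atp5j and Uqcrh the 4 monocyte-derived LM libraries lie above the 4 monocyte-derived microglia libraries, and in Cox6a2 they lie below.

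Tissue-specific isoforms had low counts. Cox6a2, the heart and skeletal muscle form of subunit VIa (chr7:128205435-128206387, minus strand), measured 20.2, 14.1, 14.0 and 20.0 CPM in monocyte-derived microglia and 7.73, 3.29, 5.74 and 8.75 CPM in monocyte-derived leptomeningeal macrophages. These groups did not overlap, and the fall was -1.36 ± 0.50 (adjusted p = 0.0438, edgeR), which was lost in 10 of 18 alternatives (adjusted p from 0.000263 to 0.143). Host microglia had 30.1, 31.4, 22.8 and 45.5 CPM of Cox6a2. Its ubiquitous counterpart Cox6a1 rose in the leptomeningeal group by 0.65 ± 0.19 (adjusted p = 0.00634, edgeR), from 475 ± 9.95 to 746 ± 153 CPM. Cox6b2, known from testis, measured 8.65, 9.93, 5.61 and 5.59 CPM against 12.7, 18.7, 23.0 and 16.8 CPM and rose by 1.24 ± 0.33 (adjusted p = 0.00321, edgeR).

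The muscle forms Cox7a1 and Cox8b and the processed pseudogene Cox6c2 had too few counts to be tested. Cox7a1 measured at most 7.83 CPM, Cox8b at most 8.59 CPM and Cox6c2 at most 5.12 CPM in any library. The 3 genes for subunit c of the ATP synthase ring, which encode the same mature protein, did not move alike. Atp5g3 rose in the leptomeningeal group by 0.74 (adjusted p = 0.00146, edgeR) and Atp5g1 by 0.49 (adjusted p = 0.0163, edgeR), whereas Atp5g2 was at -0.87 and not called (adjusted p = 0.0726, edgeR). Atp5g2 was low, at 8.07 to 15.2 CPM in monocyte-derived microglia and 4.04 to 13.4 CPM in the leptomeningeal group.

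Promoters were read because most members moved together in this comparison. RefSeq promoters (GRCm38.p6, 250 bases before to 50 after the start) matched 68 of the 82 members by symbol and 8036 of the tested genes. The core motif of NRF1, a regulator of respiratory chain genes (CGCATGCG, which reads the same on both strands), occurred in 9 of the 68 (13.2%), against 4.73% of tested genes and 2.07% of 27025 promoters. An ETS motif (CCGGAAG, either strand) occurred in 25.0% against 22.1% and 9.93%, and a YY1 motif (AAGATGGCG, either strand) in 10.3% against 4.09% and 1.64%. The ETS and YY1 motifs share the letters AAG and can overlap. Of the members called higher in the leptomeningeal group 7 of 44 held the NRF1 core, and of those not called higher 2 of 22. A match describes the letters and not a bound site.

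The windows around the 9 NRF1 cores show where the motif lies in genes of different complexes. Each line gives 24 bases on the strand of the gene, with the motif in capitals.
Ndufa8: gctggagaCGCATGCGcagatggt
Ndufa11: gcactgcgCGCATGCGcgcacgcc
Uqcrc1: ccgctctgCGCATGCGcagcgcgg
Uqcr11: cgccttcaCGCATGCGctatacgt
Cox6a1: gaacggggCGCATGCGcgctctcg
Atp5j: ccagaataCGCATGCGtacagtgc
Atp5k: cactgcggCGCATGCGcctttctg
Atp5l: accaataaCGCATGCGcatttccc
Atp5g2: tccggccgCGCATGCGcagagcct

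These windows lie at chr2:36049332-36049355 (Ndufa8, minus strand), chr17:56717695-56717718 (Ndufa11, plus), chr9:108936671-108936694 (Uqcrc1, plus), chr10:80406811-80406834 (Uqcr11, minus) and chr5:115349104-115349127 (Cox6a1, minus). The others lie at chr16:84835108-84835131 (Atp5j, minus), chr5:108434433-108434456 (Atp5k, minus), chr9:44920968-44920991 (Atp5l, minus) and chr15:102671073-102671096 (Atp5g2, minus), all on GRCm38.p6. Counted from the RefSeq start, the motif began 5 bases before it in Uqcr11, at position -9 in Ndufa8 and at position 32 in Uqcrc1. It was farthest away in Atp5l, at position -241. GENCODE vM21 places some starts elsewhere. On its positions the windows of Ndufa8, Uqcrc1, Atp5j and Atp5g2 lie inside the gene, and those of Uqcr11 and Atp5k span its start. Of these genes Ndufa8 (0.74), Ndufa11 (0.78), Uqcrc1 (0.64), Uqcr11 (0.77), Cox6a1 (0.65), Atp5j (1.37) and Atp5k (1.05) were called higher in the leptomeningeal group, and Atp5l (0.29) and Atp5g2 (-0.87) were not called.

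Markers of other cells differed between the same groups. Neutrophil markers (3 of 4 listed were in the table, none at 0) summed to between 733.5 and 1684 CPM in monocyte-derived leptomeningeal macrophages and between 8.41 and 50.3 CPM in monocyte-derived microglia. Monocyte markers (2 of 3 in the table) summed to between 539.6 and 733 CPM against 49.0 to 71.0 CPM, and the 5 T and NK cell markers to between 172 and 409 CPM against 62.8 to 65.2 CPM. Cytosolic ribosomal proteins took 13.7% to 14.6% of counts against 6.53% to 7.26%. Oligodendrocyte markers (2 of 3 in the table) summed to between 89.2 and 114 CPM against 37.8 to 53.0 CPM, and markers of fibroblasts and mural cells (3 of 4) to between 24.2 and 40.2 CPM against 0 to 0.701 CPM. Their part in the result was not tested.

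Monocyte-derived microglia differed from host microglia in a limited set of members. Of the 79, 3 were called higher and 11 lower, which is fewer higher than the 15.1% of all tested genes called higher and near the 15.1% called lower. The median log2 fold change was -0.12, against 0.01 over all tested genes. The members called lower were 7 of complex I, 2 of complex II and 2 of complex V, and the members called higher were Ndufa6, Cox7a2l and Atp5g2. Without the 3 shallow libraries, which belong to neither group but share the estimate of spread, 9 were called higher and 25 lower, with 20% and 18.3% of all genes. Fitted with these 2 groups alone, 16 of 78 were called higher and 30 lower, with 23.4% and 22.1% of all genes tested in that fit. Without host replicate 3, 7 were called lower, with 11.9% of all genes.

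Atp5j measured 119, 99.6, 109.9 and 124 CPM in host microglia and 62.8, 53.0, 57.5 and 56.7 CPM in monocyte-derived microglia, a fall of -0.97 ± 0.19 (adjusted p = 0.000185, edgeR). Ndufa8, an accessory subunit of the membrane arm with a twin-cysteine fold (chr2:36036326-36049406, minus strand), measured 119.5, 140.5, 145 and 133 CPM against 66.9, 76.1, 72.9 and 80.6 CPM, a fall of -0.87 ± 0.17 (adjusted p = 0.000138, edgeR). No library of one group reached the other in either gene. Ndufab1, the mitochondrial acyl carrier protein, which also serves fatty acid synthesis, measured 119.5, 146, 129.6 and 149 CPM against 98.6, 90.2, 87.6 and 64.7 CPM and fell by 0.67 on the log2 scale (SE 0.19, adjusted p = 0.00851, edgeR).

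Sdhd measured 106, 122, 121 and 95.8 CPM in host microglia, above all 4 monocyte-derived microglia libraries, and its change was -0.62 ± 0.15 (adjusted p = 0.00168, edgeR). Sdhc was at 18.1 ± 3.85 CPM in host microglia and changed by -1.58 ± 0.48 (adjusted p = 0.0174, edgeR). Ndufv3, with 152, 147, 133 and 147 CPM in host microglia, changed by -0.60 ± 0.16 (adjusted p = 0.00437, edgeR). Ndufs6, with 142.5, 120.5, 117 and 145 CPM there, changed by -0.59 ± 0.18 (adjusted p = 0.0135, edgeR). The other members called lower were Ndufa11, Ndufb11, Ndufb6 and, in the catalytic head, Atp5a1 (-0.42).

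Cox7a2l, also known as Scaf1 and described as joining complexes III and IV in supercomplexes (chr17:83501918-83517330, minus strand), went up in donor-derived cells. Whether its protein does so in these mice was not tested. It measured 184, 172, 149.9 and 169 CPM in host microglia and 235, 244, 256 and 246 CPM in monocyte-derived microglia, without overlap, and rose by 0.54 ± 0.17 (adjusted p = 0.0122, edgeR). This call was kept in all 18 alternatives (adjusted p up to 0.0495). Ndufa6, an accessory subunit near the quinone site, measured 216, 197, 213.5 and 237 CPM against 259, 305, 317 and 283 CPM and rose by 0.43 ± 0.15 (adjusted p = 0.0299, edgeR), which was lost in 7 of 18 alternatives (adjusted p up to 0.0928). Those were the thinned counts and the fits without host replicates 1, 2 or 3 or monocyte-derived replicates 2, 3 or 4. Atp5g2 measured 2.15, 6.37, 3.86 and 4.69 CPM in host and 8.07, 14.1, 12.6 and 15.2 CPM in monocyte-derived microglia and rose by 1.47 ± 0.38 (adjusted p = 0.00309, edgeR).

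Markers of choroid plexus epithelium summed to between 2070 and 3498 CPM in host microglia and between 5.6 and 161 CPM in monocyte-derived microglia, and all 3 neutrophil markers in the table were at 0 in host microglia. Astrocyte markers (2 of 4 in the table) summed to between 161 and 208 CPM in host and between 23.1 and 29.0 CPM in monocyte-derived microglia. Slc1a3 made up most of that sum, at means of 187 and 20.9 CPM. Aldoc, the other gene, was not lower in monocyte-derived microglia, at 4.82 against 3.80 CPM with overlap. The part of these markers in the result was not tested.

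In HSC-derived microglia 31 of the 79 members were called higher than in host microglia, where 16.3% of all tested genes were (edgeR). Called lower were 0, against 13.1% of all tested genes. At an unadjusted p under 0.05, 37 were higher and 1 lower. DESeq2 called 34 higher and 0 lower, with 17.9% and 11.7% of all genes. The count of 31 rested on the shallow libraries. Without them 8 members were called higher and 2 lower, with 13.8% and 11.9% of all genes called, and the median log2 fold change went from 0.42 to 0.04. Leaving out HSC-derived replicate 3 alone gave 19 higher, with 14.5% of all genes, and replicate 4 alone gave 20, with 13.5%. With library totals in place of TMM, 13 were called higher and 5 lower, with 11.2% and 24% of all genes, and the median over all genes shifted to -0.28 and that of the members to 0.04.

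Markers of choroid plexus epithelium summed to between 10.99 and 480.3 CPM in HSC-derived microglia, under the 2070 to 3498 CPM of host microglia. Astrocyte markers (2 of 4 in the table) summed to between 15.1 and 71.7 CPM against 161 to 208 CPM. Of these, Slc1a3 had means of 17.8 against 187 CPM. Aldoc was not lower, at 21.7 against 3.80 CPM with overlap. Monocyte markers were higher, at 93.9 to 132 CPM against 8.07 to 14.3 CPM. Their part in the result was not tested.

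Inside HSC-derived microglia the members lay mostly higher in the shallow libraries. In 66 of the 82 members (80.5%) both shallow libraries lay above both deeper ones, which was so for 19.9% of tested genes, and in 2 members (2.44%) they lay below, against 31.7%. The median ratio of the shallow to the deeper pair was 1.73 for the members and 0.906 for all tested genes. Cytosolic ribosomal proteins took 14.1% and 13.4% of counts in the shallow pair and 8.68% and 8.89% in the deeper pair. What separates these libraries was not tested.

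**Figure D4:**
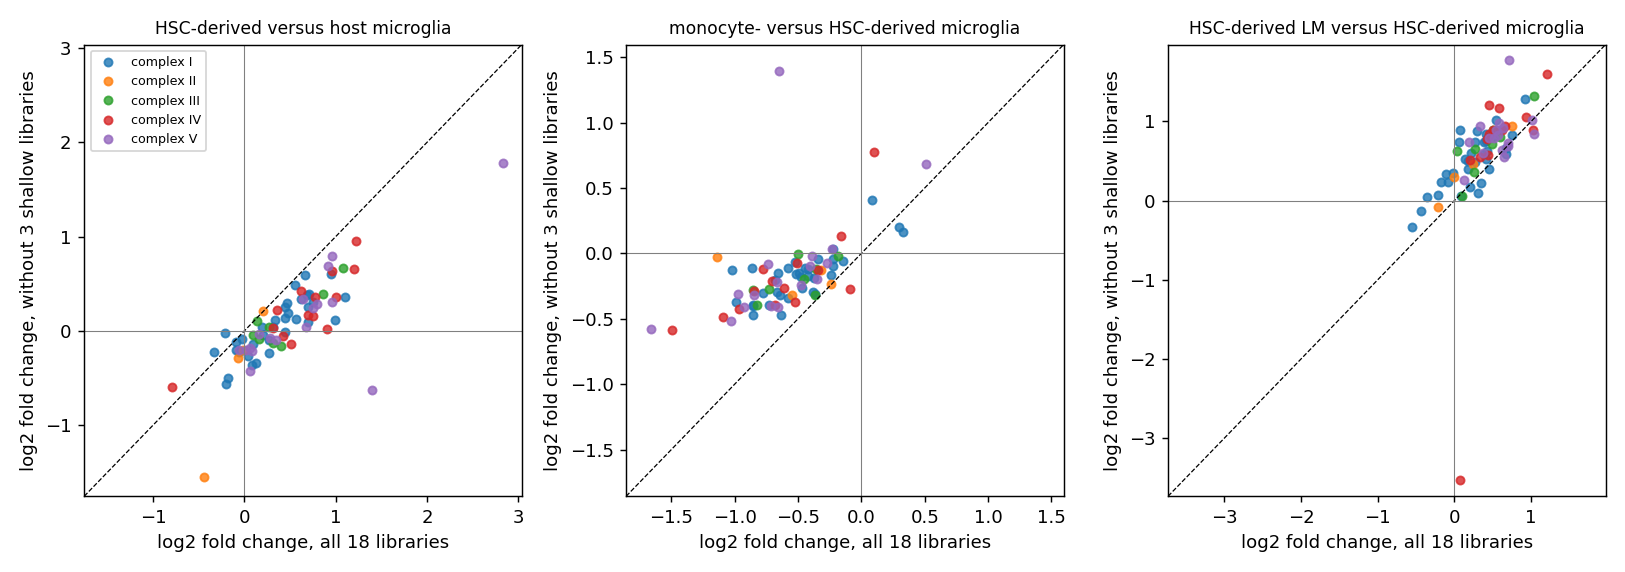
Log2 fold changes of the tested members with all 18 libraries (horizontal axis) and without the 3 shallow libraries (vertical axis) in 3 comparisons, coloured by complex; the dashed line marks equal values. For HSC-derived against host microglia nearly all points lie below the line (median 0.42 with and 0.04 without), and for HSC-derived LM against HSC-derived microglia most lie above it (0.41 and 0.71).

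The 8 members called higher with and without the shallow libraries were Ndufa6, Ndufb2, Uqcrh, Cox5b, Cox7a2l, Cox7c, Atp5md and Atp5mpl. Cox7a2l measured 293 and 356 CPM in the deeper HSC-derived libraries and 558.5 and 411 CPM in the shallow ones, all above the 4 host libraries. Its rise was 1.23 ± 0.17 (adjusted p = 1.07e-06, edgeR), and 0.95 without the shallow libraries. Uqcrh measured 139, 147, 236 and 289.6 CPM in HSC-derived microglia and 96.6, 83.2, 90.6 and 89.7 CPM in host microglia, a rise of 1.08 ± 0.17 (adjusted p = 7.64e-06, edgeR), and 0.67 without them. Cox7c, a small membrane subunit of complex IV, measured 283, 242, 594 and 481 CPM against 169.7, 149, 169.6 and 178 CPM, a rise of 1.20 ± 0.20 (adjusted p = 1.61e-05, edgeR), and 0.66 without them. In each of the 3 genes the deeper pair alone also lay above the host libraries.

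Ndufa6 rose by 0.95 ± 0.16 (adjusted p = 1.77e-05, edgeR), and by 0.61 without the shallow libraries. Atp5md, a small protein of the synthase dimer, measured 6.44, 5.00, 4.56 and 12.7 CPM in host microglia and 29.8, 16.5, 87.1 and 121 CPM in HSC-derived microglia, a rise of 2.83 ± 0.72 (adjusted p = 0.00887, edgeR), and 1.78 without them. Other calls were lost: Cox4i1, with 724 and 676 CPM in the deeper and 1532 and 1162 CPM in the shallow libraries, went from 0.69 (adjusted p = 0.00916, edgeR) to 0.17, Cox6c, another small subunit of complex IV, from 1.00 to 0.36, and Ndufa5, of complex I, from 1.10 to 0.36. The 2 members called lower without the shallow libraries were Ndufa8 (-0.56) and Sdhc (-1.55).

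Monocyte-derived and HSC-derived microglia were compared directly. With all libraries 19 members were called lower in the monocyte-derived cells, where 1.76% of all tested genes were (edgeR). Called higher were 0, against 0.123% of all tested genes. At an unadjusted p under 0.05, 54 were lower and 0 higher. DESeq2 called 36 lower and 0 higher, with 4.95% and 0.264% of all genes. Without the 3 shallow libraries none was called in either direction (edgeR; unadjusted, 21 lower and 1 higher), with 0.431% and 0.0275% of all genes called, and the median went from -0.53 to -0.20. Leaving out HSC-derived replicate 3 or 4 alone left 1 call, with 0.283% or 0.265% of all genes called lower. Leaving out replicate 1 or 2 gave 38 or 37, with 4.48% or 4.43% of all genes. Without 1 monocyte-derived library there were 6, 9, 10 and 8 calls for replicates 1 to 4, with 0.438%, 0.731%, 0.895% and 0.59%. Library totals gave 3, with 0.623%, and a fit of these 2 groups alone gave 0, with 0.233%.

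Among the 19 members called, the largest difference was in Cox8a, at 173 and 144 CPM in the deeper HSC-derived libraries and 543 and 427 CPM in the shallow ones, against 91.8 to 116 CPM in monocyte-derived microglia. Ndufs5 (-2.28) and Atp5md (-1.66) were further from 0 but not called. Cox8a was at -1.49 ± 0.35 (adjusted p = 0.0424, edgeR; 0.00013 to 0.245 over its alternatives), and at -0.59, not called, without the shallow libraries. Cox6b1 was at -1.09 ± 0.20 (adjusted p = 0.00433, edgeR) and at -0.48 without them, and Atp5j at -1.03 and -0.52. Atp5j was at 72.3 and 94.8 CPM in the deeper HSC-derived libraries, so that the groups did not overlap without the shallow pair either. Ndufa13, also called Grim19, went from -0.99 to -0.37, and Atp5e, the epsilon subunit of the central stalk, from -0.97 to -0.31.

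Between the leptomeningeal groups 1 member was called lower in monocyte-derived than in HSC-derived macrophages, where 0.142% of all tested genes were (edgeR). Called higher were 0, against 0.16% of all tested genes. At an unadjusted p under 0.05, 15 were lower and 0 higher. DESeq2 called 6 lower and 0 higher, with 0.997% and 0.942% of the 3611 genes to which it gave an adjusted p. The HSC-derived group had 2 libraries. The member was Ndufc1, a small subunit of the complex I membrane arm (chr3:51404677-51408988, minus strand), with 42.2, 43.9, 40.2 and 35.7 CPM in the monocyte-derived and 92.8 and 84.7 CPM in the HSC-derived libraries. The difference was -1.17 ± 0.27 (adjusted p = 0.0389, edgeR), and the call was lost in 9 of 16 alternatives. Without the shallow libraries, which leaves 1 HSC-derived library, the difference was -1.21. Cox7c was at -1.01 (adjusted p = 0.0524, edgeR) with 273 to 349.9 CPM against 499.9 and 739 CPM, and at -0.74 without the shallow libraries. Any fit with 1 HSC-derived library assumes that it varies like the other groups. Leaving out monocyte-derived replicate 1 gave 4 calls, with 0.324% of all genes called lower. Without HSC-derived replicate 2 there was no call, and without replicate 1 there was 1, which was not Ndufc1.

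Within the HSC lineage 7 of the 79 members were called higher in leptomeningeal macrophages than in microglia, where 5.75% of all tested genes were (edgeR). Called lower were 0, against 3.97% of all tested genes. Unadjusted, 21 were higher and 0 lower. DESeq2 called 5 higher and 0 lower, with 5.75% and 3.28% of all genes. The 7 were Ndufc1, Ndufb10, Uqcrb, Cox7a2, Cox7b, Atp5a1 and Atp5b. Cox7b, a membrane subunit of complex IV, measured 147 to 231 CPM in the 4 microglia libraries and 316 and 339 CPM in the leptomeningeal ones, a rise of 0.94 ± 0.20 (adjusted p = 0.00134, edgeR). Uqcrb, which binds ubiquinone in complex III, rose by 1.04 ± 0.29 (adjusted p = 0.0214, edgeR), Cox7a2 by 1.02 ± 0.25 (adjusted p = 0.00478, edgeR) and Atp5b by 0.70 ± 0.22 (adjusted p = 0.0378, edgeR).

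Without the 3 shallow libraries, 37 members were called higher and 1 lower, with 8.37% and 5.03% of all genes, and the median went from 0.41 to 0.71. By complex, those called higher were 12 of 35 in complex I, 4 of 8 in complex III, 9 of 15 in complex IV and 12 of 17 in complex V. That fit holds 1 HSC-derived leptomeningeal library and assumes that it varies like the other groups. Leaving out single libraries gave 16 or 15 calls without HSC-derived microglia replicate 3 or 4, 2 without microglia replicate 1 or 2, 2 without leptomeningeal replicate 1 and 1 without leptomeningeal replicate 2. Of all genes 6.69%, 6.16%, 4.56% and 4.95% were called higher without microglia replicates 3, 4, 1 and 2. A fit of these 2 groups alone gave 0, with 1.86% of all genes. The member called lower without the shallow libraries was Cox6a2, at -3.53, after 0.07 with all libraries: it measured 1.72 CPM (1 count) in the deeper and 84.7 CPM (11 counts) in the shallow leptomeningeal library.

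Markers of other cells differed between these groups too. Monocyte markers summed to 315.8 and 525.6 CPM in HSC-derived leptomeningeal macrophages and to between 93.9 and 132 CPM in HSC-derived microglia, and T and NK cell markers to 154 and 228.5 CPM against 0 to 81.1 CPM. Erythroid markers (2 of 3 in the table) summed to 359 and 3089 CPM against 32.98 to 669 CPM, and neutrophil markers to 3.44 and 30.8 CPM against 0 to 5.12 CPM, with overlap in both classes. Their part in the result was not tested.

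The contrasts between compartments in the monocyte and HSC lineages share no library. With all libraries 6 members were called higher in both, which is 11.1% of the 54 in the monocyte lineage and 85.7% of the 7 in the HSC lineage, against 28.2% and 93.3% for all tested genes. Without the shallow libraries 34 were, or 58.6% of 58 and 91.9% of 37, against 34.5% and 93.3%. The difference between the lineages in the effect of compartment was tested as an interaction. No member was called in either direction, where 0.0566% of all tested genes were called higher and 0% lower (edgeR). Unadjusted, 14 were higher and 3 lower. DESeq2 called 0 members, but it gave an adjusted p to 940 genes only, of which 4.68% were called higher and 0.532% lower. Members without an adjusted p could not have been called there. The median interaction of the members was 0.30, and 0.05 without the shallow libraries.

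The members have short transcripts, with a median of 718.5 bases and a range from 321.5 to 2900 over the 77 tested members with a length in GENCODE vM21. Across these genes, which are not independent replicates and were measured in the same libraries, the log2 fold change of HSC-derived against host microglia went with log2 length at r = -0.50 (Spearman -0.56), against -0.14 (-0.15) over 9609 tested genes. Without the shallow libraries the values for the members were -0.25 and -0.24. In 3 length classes that were chosen after the data were seen, up to 600 bases (27 genes), 601 to 1000 (25) and longer (25), the members' medians in that comparison were 0.75, 0.34 and 0.14. Over all tested genes they were 0.74, 0.26 and -0.07, and over the tested genes other than members 0.72, 0.25 and -0.07.

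For leptomeningeal macrophages against microglia in the monocyte lineage, the correlation with length was -0.28 (Spearman -0.42) for the members and -0.25 (-0.30) for all genes. The members' medians in the 3 classes were 0.77, 0.76 and 0.49, and those of all tested genes were 0.77, 0.39 and -0.09. With the members taken out, the medians of the other tested genes were 0.78 (146 genes), 0.37 (667) and -0.09 (8719). In the shortest class the members' median thus lay close to that of the other genes. In the longest class 23 of 25 members were positive, or 92.0%, against 43.3% of the others. That class has no upper limit, while the members end at 2900 bases, so that lengths in it were not matched. The other genes also include the cytosolic ribosomal proteins.

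**Figure D5:**
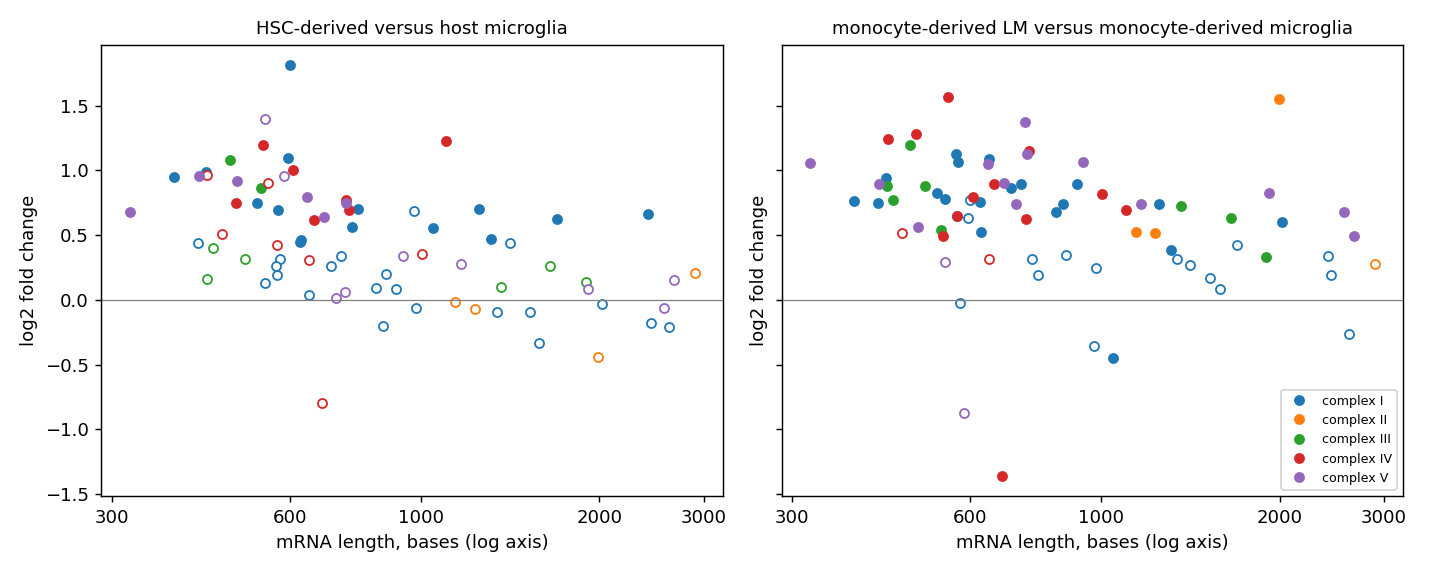
Log2 fold change of the tested members against mRNA length in bases (log axis), for HSC-derived against host microglia (left) and monocyte-derived LM against monocyte-derived microglia (right); colours mark complexes and filled points are called. At left the medians step from 0.75 to 0.34 to 0.14 over the 3 length classes, and at right from 0.77 to 0.76 to 0.49. Atp5md and Atp5pb, with no matched length, are not plotted.

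Other mitochondrial gene lists were set beside the members. In monocyte-derived leptomeningeal macrophages against microglia, where 19% of all tested genes were called higher and 16.3% lower, 6 of 18 tested tricarboxylic acid cycle genes were called higher. Of 71 mitochondrial ribosomal proteins 17 were called higher, a share near that of all genes, and 1 lower. Of the assembly factors 5 of 42 were called higher and 1 lower, and of the 6 tested mitochondrially encoded subunits 0 in either direction (edgeR for all lists; for the last, 1 was higher and 0 lower at an unadjusted p under 0.05). Slc25a3, which carries phosphate into mitochondria for the ATP synthase, rose from 300.2 ± 16.9 to 591 ± 56.5 CPM, by 0.98 ± 0.13 (adjusted p = 3.33e-07, edgeR). Cyc1, the cytochrome c1 of complex III that the name rule does not take in, rose by 0.56 ± 0.14 (adjusted p = 0.0023, edgeR). Sod2, the mitochondrial superoxide dismutase, rose by 1.31 ± 0.16 (adjusted p = 4.48e-08, edgeR).

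Among electron carriers and coenzyme Q genes 4 of 16 were called higher, among carriers of the inner membrane 4 of 12 (and 1 lower), among import genes 7 of 20 (and 1 lower) and among antioxidant genes 4 of 8. Each of these mitochondrial lists had a smaller share called higher than the members, while the cytosolic ribosomal proteins had a larger one, with 75 of 84 called higher. Among 14 tested regulators of mitochondrial biogenesis 2 were called lower: Ssbp1, which binds single-stranded mitochondrial DNA, at -0.66, and Mterf3, a mitochondrial transcription factor, at -0.53. In monocyte-derived against host microglia, mt-Nd4, a mitochondrially encoded complex I subunit, rose by 0.55, the citrate synthase gene Cs was at -0.48 and called lower, and 14 of 71 mitochondrial ribosomal proteins were called lower and 4 higher, where 15.1% of all genes were called in each direction. In HSC-derived against host microglia 5 of 6 mitochondrially encoded subunits were called higher, where 16.3% of all genes were, and 4 without the shallow libraries, where 13.8% were.

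Genes whose names end in -ps were left out. The most counted, Ndufb1-ps, measured up to 308 CPM in a shallow library and up to 180.4 CPM in the others. Reads of near-identical copies cannot be told apart here, so that values of Ndufs5, Ndufa12, Cox7c and Atp5pb, each of which has such a copy in the table, are less certain than the rest.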

How the data were processed

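Per the labels' protocols, up to 100000 cells were sorted per library in the presence of actinomycin D and polyadenylated RNA was isolated with oligo(dT) beads for MARS-seq. The deposited table holds the authors' UMI counts for each gene; its scaled and log versions were not used, and 2 of its 20 libraries matched no label and were left out. The genome build is mm10, per the submitters' processing notes; aligner and counting program: not given in the sources used here. Counts were filtered with filterByExpr, scaled by TMM and fitted with robust quasi-likelihood in edgeR 4.0.16 (limma 3.58.1, R 4.3.3), with 1 coefficient per group over 18 libraries, a common biological coefficient of variation of 0.161 and 7 two-sided comparisons. P-values were adjusted by Benjamini-Hochberg over 10597 genes with a threshold of 0.05. For counts at an unadjusted p under 0.05 the share of all genes was not worked out. A standard error is the log2 fold change over the square root of its F statistic.

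Alternatives were DESeq2 1.42.0, other scalings, filters, thinning, a replicate block, the groups compared alone, and left-out libraries. The scripts were tested on simulated counts with known changes in randomly picked genes. A log2 change of 1 was recovered for 59.2% of such genes in monocyte-derived and 36.2% in HSC-derived against host microglia. In HSC-derived leptomeningeal macrophages against microglia the share was 11.6%, so that few calls there do not mean equal levels. The simulation used 1 fixed spread and changed few genes, of any abundance. These shares are therefore not recovery rates for the members. Replicate numbers were not used to pair the samples, except in the replicate block. The members and lists were chosen with earlier results of these data known. The text names isoform groups, core subunits, up to 6 called members at either end of each comparison with at least 50 CPM, the 5 most counted members and up to 3 called genes of each other list; members outside that rule, among them Sdhc, Ndufa2, Ndufv2 and those listed for a motif or for copies, were chosen after their values were seen. The values of 1 member are not reported here, though it is counted among the members.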

Additional observations from a re-analysis of the deposited data

Results flagged for a closer look

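Of 144 sets of 4 libraries, 6 held a library farther from the rest than Dixon's 95% critical value allows, which is 4.2%, and chance gives about 1 in 20. Ndufs3, the core subunit of complex I that was called lower in monocyte-derived leptomeningeal macrophages, was in 2 of them: leptomeningeal replicate 1 had 66.75 CPM against 36.34 to 39.53 CPM in the others, and monocyte-derived microglia replicate 4 had 75.02 CPM against 57.11 to 59.37 CPM. Cox7b was at 230.9 CPM in HSC-derived microglia replicate 4, a shallow library, and at 147 to 160.1 CPM in the others. Cox7c was at 235.9 CPM in monocyte-derived microglia replicate 2, above 202.5 to 207.5 CPM. In host microglia, Ndufa13 was at 388.4 CPM in replicate 4 (others 349 to 353.8 CPM) and Atp5e at 135.3 CPM in replicate 1 (others 154.7 to 158.2 CPM). No member's interaction of origin and compartment passed the threshold in edgeR (14 were higher and 3 lower at an unadjusted p under 0.05). DESeq2 called 0 members, but it gave an adjusted p to 940 genes only.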

How the results depend on the processing

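All counts are of members called, and the share of all genes called also changed between settings. Fits without the 3 shallow libraries hold 1 HSC-derived leptomeningeal library. Monocyte-derived against host microglia gave 3 higher and 11 lower: without the 3 shallow libraries 9 and 25, with only these groups 16 and 30, with library totals 17 lower, and 2 to 3 higher and 7 to 8 lower when 1 library was left out. HSC-derived against host microglia gave 31 and 0: library totals 13 and 5, without the shallow libraries 8 and 2, leaving 1 out 19 to 38 and 0 to 1. Monocyte-derived against HSC-derived microglia gave 19 lower: totals 3, without the shallow libraries 0, DESeq2 36, only these groups 0, leaving 1 out 1 to 38. Between leptomeningeal groups 1 was lower: totals 2, no filter 0, without the shallow libraries 2, DESeq2 6, only these groups 0, thinned counts 0, leaving 1 out 0 to 4.

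In the monocyte lineage the 54 leptomeningeal members called higher ran from 39 (totals) to 59 (only these groups), and 48 to 54 leaving 1 out; the 2 called lower became 4 with totals, 1 with scaling without ribosomal proteins and Apoe, 1 with DESeq2, 1 with thinned counts and 0 to 3 leaving 1 out. In the HSC lineage the 7 called higher became 4 with totals, 37 without the shallow libraries, 0 with only these groups, 4 with thinned counts and 1 to 16 leaving 1 out; the 0 called lower became 1 without the shallow libraries and 0 to 1 leaving 1 out. Cox6a2 reversed there, from 0.07 to -3.53 without the shallow libraries, and ran from -3.32 to 2.12 leaving 1 out (without leptomeningeal replicates 2 and 1). Interaction calls were 0 in both directions, except 0 to 1 lower leaving 1 out (1 without HSC-derived leptomeningeal replicate 1). The cause of these changes was not tested.

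The replicate block gave 3 and 11, 30 and 0, 22 lower, 1 lower, 52 and 0, 12 and 0, and 0 and 0 in the order above. The 1 lower between leptomeningeal groups was not Ndufc1 there. Deviations of 32 same-numbered pairs correlated from -0.32 to 0.32, with 1 over 0.1. In 12 of these pairs the own number was the best match. Both extremes involve HSC-derived leptomeningeal libraries, whose 2 deviations from their mean are mirror images. Whether same-numbered samples shared a mouse cannot be told from these values. Depth limits low members: 3 counts in the shallowest library equal 23.1 CPM.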
